A study of Rattus norvegicus with 4 samples.

Results

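The kinases and adaptors described here are the intracellular enzymes and docking proteins that carry a signal from the IgE receptor of mast cells, and from related antigen and Fc receptors of B cells and myeloid cells, into the cell. They were taken as 10 genes, Lyn, Syk, Fyn, Btk, Plcg2, Grb2, Gab2, Vav1, Lat2 and Lcp2, and every probe set to which the array's annotation gives 1 of these symbols alone was included. Of the 10 genes, 9 had such a probe set, among 14217 genes of the array with a probe set of 1 symbol, and they were read by 14 probe sets of 31042. Lat2 was not analysed here.

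The RNA came from cells labelled as AA4+ mast cells of the pancreatic lymph node of female BioBreeding rats at day 65. One pool of RNA represented 8 DRlyp/lyp animals, the diabetic prone rats whose lyp allele is a mutation of Gimap5 that leaves few peripheral T cells, and the other represented 8 DR+/+ animals, the diabetic resistant rats with the normal allele. The labels name no treatment in either group. About 50 ng of RNA of each pool was amplified in 2 independent reactions, and each product was hybridised to 1 Affymetrix rat array, so there were 4 arrays. Values are signal in the deposited linear units, given for both arrays of a pool or as mean ± SD (n = 2 arrays of 1 pool). The spread is that of amplification and array, so every p-value compares 2 pools of RNA and not the strains.

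When antigen crosslinks IgE on its receptor, the Src family kinase Lyn phosphorylates the receptor's signalling motifs, and Syk docks there and becomes active. Syk and its partners phosphorylate the adaptors Lat and Lat2, which gather Grb2, Gab2, the adaptor Lcp2 (SLP-76) and the exchange factor Vav1. Fyn feeds a parallel branch through Gab2 to phosphoinositide 3-kinase, and Btk activates phospholipase C gamma, whose products release calcium and start degranulation. B cells use Lyn, Syk, Btk and Plcg2 below their antigen receptor in the same manner, and T cells use Fyn and Lcp2 with Lck, Zap70 and Plcg1.

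The arrays of a pool correlated at 0.983 (DRlyp/lyp) and 0.975 (DR+/+) over the log2 values of the probe sets tested, and arrays of different pools at 0.908 to 0.916. The labelled cell type was checked against markers. Of 18 mast cell markers, 16 had a probe set and 13 were tested, with 4 called up and 4 called down in DRlyp/lyp RNA, and the summed signal of the 13 was 3246 to 3332 in the DRlyp/lyp and 2219 to 2234 in the DR+/+ arrays. Most of that gap was the chymase Mcpt1 (1602 and 1665 against 655 and 669), while the tryptases Tpsab1 (19.9 and 29.8 against 77.0 and 103) and Tpsb2 (28.7 and 34.4 against 89.4 and 92.6) were lower. Cpa3, the mast cell carboxypeptidase, was at 516 and 528 against 426 and 462, but Kit, the stem cell factor receptor, stayed at 11.3 or below on all 4 arrays and Gata2 did not pass the filter. Markers of other cells were plentiful. Of 13 B cell markers tested, 8 were called down and 0 up in DRlyp/lyp RNA (summed signal 20426 to 21680 against 26311 to 27843). The 5 not called were Ms4a1, Cr2, Cd22, Blnk and Fcer2, with log2 differences of -0.27 to -0.04 on their brightest probe sets. The dimmer probe sets of Cr2 (log2 differences -1.39 to -0.51) and of Fcer2 were all called lower. That of Fcer2 differed by -2.85, at 1.0 and 1.6 (DRlyp/lyp) against 38.7 and 62.5 (DR+/+). Of 17 T cell markers 16 were higher and 1 lower (12800 to 12865 against 2991 to 3295). Of 15 macrophage markers, 8 were lower and 5 higher. Digestive enzyme genes of the exocrine pancreas were called up in 12 of 12 (summed signal 9651 to 9918 against 234 to 244), with a list median log2 difference of 5.28, and erythroid genes in 2 of 2 (1551 to 1664 against 137 to 152). In such mixed RNA fewer cells of a type and less RNA per cell cannot be told apart. The 3′ minus 5′ log2 signal of the actin control, a measure of transcript length after amplification, was 4.43 and 4.55 on the DRlyp/lyp arrays and 3.01 and 3.10 on the DR+/+ arrays. The part of these marker and 3′ to 5′ differences in the results below was not tested.

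Across the signalling genes, the B cell and myeloid kinase Btk, the phospholipase Plcg2 and the adaptor Grb2 were lower in the DRlyp/lyp pool by 1.85- to 2.10-fold on their brightest probe sets, Syk was lower by 1.30-fold, and Vav1 did not pass the test. Lyn and Fyn, the Src family members, were each read by 2 probe sets that disagreed. Of 13 probe sets that passed the filter, 8 were called lower and 2 higher for DRlyp/lyp, with the adjusted p under 0.05 (limma across all 16068 probe sets tested, two-sided). Of all probe sets tested, 19.9% were called lower and 19.3% higher. A drop of at least 2-fold was called for 3 of the 13 and for 5.93% of all. The 3 were Btk, Lyn 1368679_a_at and Fyn 1369103_at. For Lyn and Fyn these are the dimmer probe sets by mean log2 signal over the 4 arrays, and the brighter ones had log2 differences of 0.41 and 0.57. On the DR+/+ arrays alone the Lyn probe set that fell was the brighter one (373 and 302 against 356 and 232). By gene, with the brightest probe set, only Btk fell that far. The median log2 difference was -0.49 over these 13 probe sets. By gene, with the brightest probe set of each, 4 of 8 were lower (Btk, Plcg2, Grb2, Syk), 1 was higher (Fyn) and 3 were not past the threshold. Over all 9349 genes tested, also by the brightest probe set, 21.1% were lower and 20.9% higher. The median log2 difference was -0.29 for the 8 genes. With the mean of each gene's probe sets 6 were lower and 0 higher, since Lyn and Fyn then counted as lower. The share of all genes called by such means is not given here, so that count has no background beside it. The signals of all 13 probe sets were above the filter of 28.3 on every array, the lowest at 63.6, so none passed it through 1 pool alone. The arrays of the pools did not overlap for 12 of the 13, and for 70.0% of all probe sets tested.

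**Figure D1:**
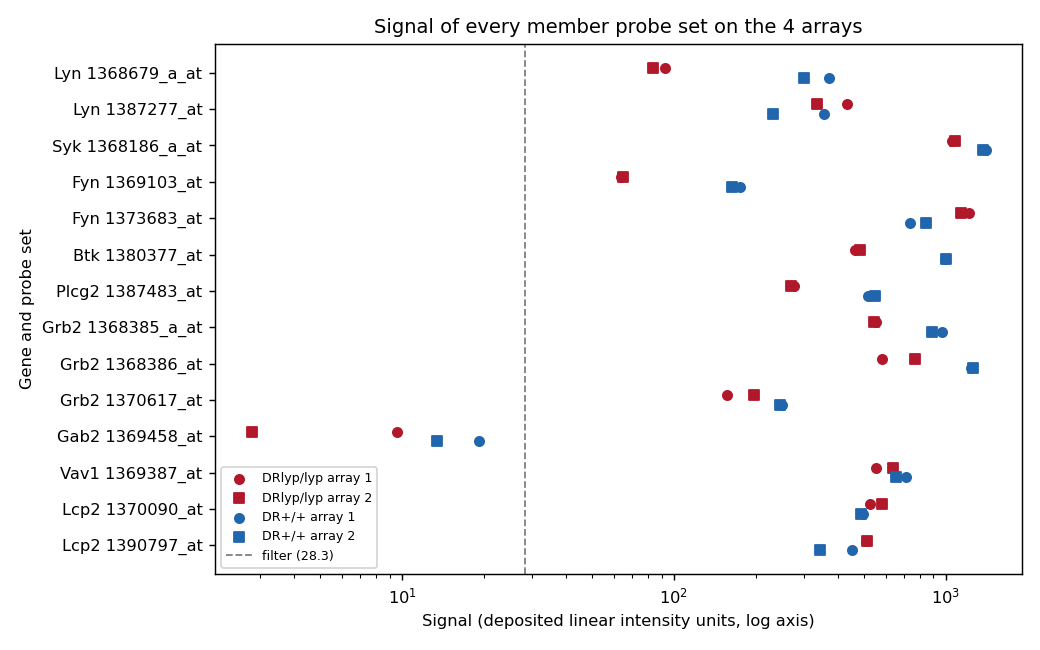
Signal on each of the 4 arrays (horizontal axis, deposited linear units on a log scale) for the 14 probe sets of 9 genes (vertical axis), with DRlyp/lyp arrays in red, DR+/+ arrays in blue and the filter of 28.3 dashed. The red symbols lie left of the blue ones for Btk, Plcg2, Syk and all 3 Grb2 probe sets, the 2 Lyn and 2 Fyn probe sets differ from each other, and Gab2 lies below the filter on every array.

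Btk is a Tec family kinase that B cells, mast cells and macrophages express and T cells do not. Its probe set read 464 and 485 (DRlyp/lyp) and 994 and 998 (DR+/+). Both DRlyp/lyp arrays lay far below both DR+/+ arrays, and the 2 arrays of each pool lay close together. The log2 difference was -1.07 (SE 0.0929, 95% interval -1.27 to -0.87, adjusted p = 5.73e-06, limma), which is 2.10-fold lower and at percentile 5.26 of the differences of all probe sets tested.

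Plcg2, the phospholipase C gamma of B cells, mast cells and myeloid cells and a substrate of Btk, read 276 and 270.2 (DRlyp/lyp) and 517 and 549 (DR+/+). The groups did not overlap. The log2 difference was -0.96 (SE 0.117, 95% interval -1.22 to -0.71, adjusted p = 6.66e-05, limma), or 1.95-fold lower. The intervals of Btk and Plcg2 overlapped, and the difference between the 2 genes was not tested.

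Syk, the tandem-SH2 kinase that binds phosphorylated receptor chains, read 1055 and 1079 (DRlyp/lyp) and 1401 and 1369.8 (DR+/+). The arrays of each pool lay close together, and the DRlyp/lyp arrays were the lower ones. The log2 difference was -0.38 (SE 0.0758, 95% interval -0.54 to -0.21, adjusted p = 0.00212, limma), or 1.30-fold lower. The interval of Syk did not reach those of Btk or Plcg2. The call for Syk was lost when the variance was not modelled on intensity (adjusted p = 0.0745).

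Btk, Plcg2 and Syk each had 1 probe set, were each lower in the DRlyp/lyp pool and had an entry in the RefSeq promoter table, so their promoters are shown. Promoters of 7 of the 10 genes were found there. Each sequence runs 5′ to 3′ on the gene's strand from 250 bases before to 50 bases after the start, on the GRCr8 assembly. Capitals mark matches, on either strand, to 4 motifs: GAGGAAG (a core of the kind bound by the Ets factor PU.1), ATGCAAAT (the octamer of B cell promoters), GGGCGG (the GC box) and TATAAA (a core promoter element). None of the 4 contains another.
Btk, chrX:102055094-102055393, minus strand: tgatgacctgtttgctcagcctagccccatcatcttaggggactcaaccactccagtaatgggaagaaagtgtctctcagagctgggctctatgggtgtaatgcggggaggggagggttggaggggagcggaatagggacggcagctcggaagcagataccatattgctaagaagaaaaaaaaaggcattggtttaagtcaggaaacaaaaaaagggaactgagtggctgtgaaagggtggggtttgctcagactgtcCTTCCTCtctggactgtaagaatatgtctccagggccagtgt
Plcg2, chr19:62455946-62456245, plus strand: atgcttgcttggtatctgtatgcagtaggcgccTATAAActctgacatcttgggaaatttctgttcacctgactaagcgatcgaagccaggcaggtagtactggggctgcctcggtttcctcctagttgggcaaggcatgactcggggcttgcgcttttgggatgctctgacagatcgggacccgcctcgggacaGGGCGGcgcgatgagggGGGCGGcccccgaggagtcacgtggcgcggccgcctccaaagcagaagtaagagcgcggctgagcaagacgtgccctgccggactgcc
Syk, chr17:12813224-12813523, minus strand: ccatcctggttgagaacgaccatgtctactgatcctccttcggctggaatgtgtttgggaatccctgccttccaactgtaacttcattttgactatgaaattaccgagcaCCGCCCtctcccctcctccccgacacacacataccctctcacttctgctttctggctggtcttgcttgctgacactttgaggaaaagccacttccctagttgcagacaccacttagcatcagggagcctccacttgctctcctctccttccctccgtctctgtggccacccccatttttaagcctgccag
The Btk window held 1 match to GAGGAAG, on the other strand, starting at base 9 after the start, and no GC box. The Plcg2 window held 2 GC boxes, starting 55 and 38 bases before the start, and TATAAA at 217 bases before it. The Syk window held 1 GC box on the other strand. No motif was found in all 3 windows. Among 33469 windows of 300 bases in the table, GAGGAAG was found in 12.4%, ATGCAAAT in 1.78%, GGGCGG in 33.1% and TATAAA in 14.2%. Vav1, which was not past the threshold, also held GAGGAAG. The windows of Vav1, Fyn and Gab2 held GC boxes as well, so the GC box was not particular to the lower genes. The GC content was 50.3% for Btk, 53.0% for Syk and 61.0% for Plcg2.

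Grb2, the SH2 and SH3 adaptor that links phosphorylated Lat and Lat2 to the Ras exchange factor Sos and to Gab2, was read by 3 probe sets. The brightest, 1368386_at, read 585 and 772 (DRlyp/lyp) and 1233 and 1254 (DR+/+). The second, 1368385_a_at, read 556 and 546 against 972 and 886. The third, 1370617_at, read 157 and 196 against 249.9 and 245. On all 3 the DRlyp/lyp arrays lay below both DR+/+ arrays. The log2 differences were -0.89 (SE 0.117, adjusted p = 0.000123), -0.75 (SE 0.0949, adjusted p = 9.07e-05) and -0.49 (SE 0.162, adjusted p = 0.0299, limma), that is 1.85-, 1.68- and 1.41-fold lower. The third, which was also the dimmest, lost its call under 5 of 12 alternatives. With DRlyp/lyp replicate 1 left out its difference was -0.33 (adjusted p = 0.275), and the adjusted p was 0.0812 when DR+/+ replicate 1 was omitted and 0.0661 when DR+/+ replicate 2 was. The mean of the 3 probe sets differed by -0.71 (adjusted p = 0.00037, limma).

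**Figure D2:**
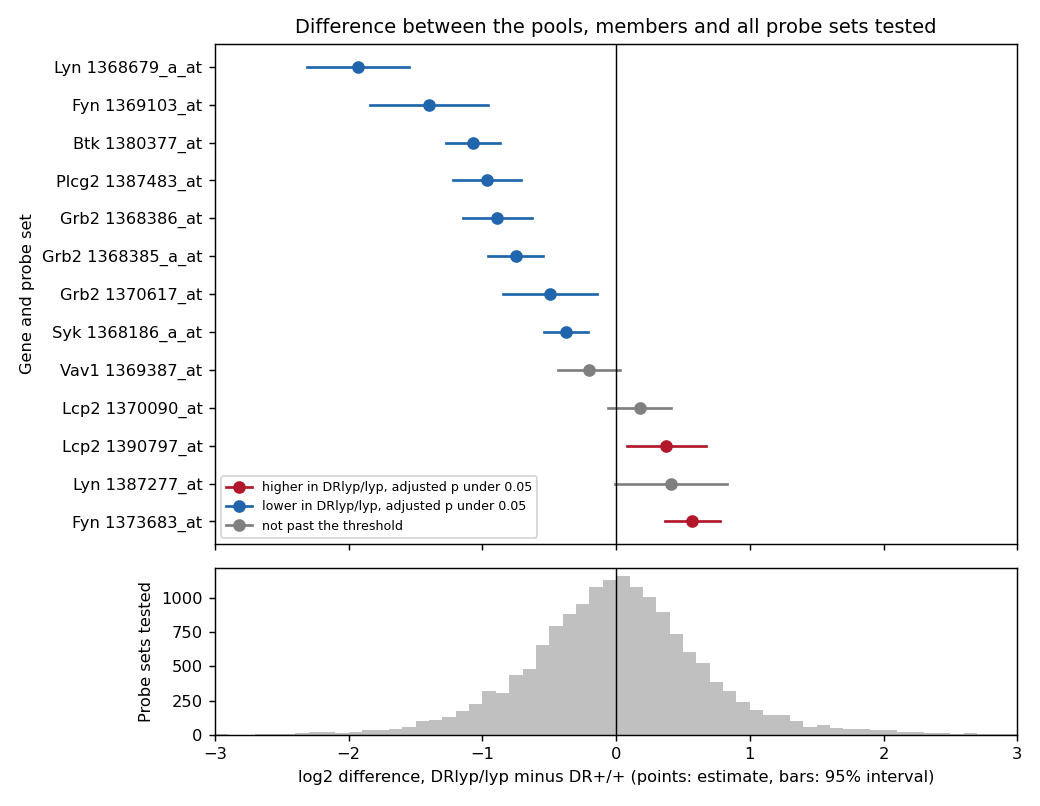
The upper panel gives the log2 difference, DRlyp/lyp minus DR+/+ (horizontal axis), for the 13 probe sets tested (vertical axis), as points with 95% intervals from limma, coloured by call, and the lower panel counts all 16068 probe sets tested by the same difference within ±3. Lyn 1368679_a_at, Fyn 1369103_at and Btk are the 3 lowest, at -1.93, -1.40 and -1.07, while the other probe sets of Lyn and Fyn lie above 0.

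Lyn, the Src family kinase that starts IgE and B cell receptor signalling and also activates their inhibitors, gave different answers from its 2 probe sets. Probe set 1368679_a_at read 92.4 and 84.0 (DRlyp/lyp) and 373 and 302 (DR+/+). Its arrays were far apart between pools, and the log2 difference of -1.93 (SE 0.174, 95% interval -2.31 to -1.55, adjusted p = 7.98e-06, limma) is 3.81-fold lower, at percentile 0.657 of all probe sets tested. Probe set 1387277_at read 432 and 337 (DRlyp/lyp) and 356 and 232 (DR+/+). These arrays overlapped, and the log2 difference of 0.41 (SE 0.191, 95% interval -0.01 to 0.83, adjusted p = 0.11, limma) was not past the threshold. Single arrays moved it: leaving out DR+/+ replicate 1 gave 0.72 (adjusted p = 0.0141), DR+/+ replicate 2 0.10 (adjusted p = 0.657) and DRlyp/lyp replicate 1 0.23 (adjusted p = 0.553, limma). Which of the 2 represents Lyn decides whether the gene counts as lower. Probe set 1387277_at stands for it in the count above, as the brighter one over all 4 arrays, though it is the dimmer one on the DR+/+ arrays. The mean of the 2 differed by -0.76 (adjusted p = 0.00418, limma).

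Fyn, the Src family kinase of the Gab2 branch in mast cells and of T cell receptor signalling, was called in both directions. Probe set 1369103_at read 63.6 and 64.8 (DRlyp/lyp) and 175 and 163 (DR+/+), with a log2 difference of -1.40 (SE 0.202, adjusted p = 0.000234, limma), or 2.63-fold lower. Probe set 1373683_at read 1218 and 1133 (DRlyp/lyp) and 741 and 845 (DR+/+), with a log2 difference of 0.57 (SE 0.0929, adjusted p = 0.000529, limma), or 1.48-fold higher. On neither probe set did the pools overlap, so the directions are opposite on every array. Fyn therefore counts as higher by its brighter probe set and as lower by the mean of both (-0.41, adjusted p = 0.0153, limma), and no single direction can be given for the gene.

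Opposite calls within a gene were also found elsewhere on the array. Of 2106 genes with at least 2 probe sets tested, 158 (7.50%) had 1 called higher and another called lower, as Fyn had. The differences of the 2 Lyn probe sets lay 2.34 apart on the log2 scale, wider than in 98.3% of those genes, and those of Fyn 1.97 apart, wider than in 96.3%, where the median gene's probe sets lay 0.64 apart. Those of Grb2 lay 0.39 and those of Lcp2 0.20 apart. In the annotation the Lyn probe set that did not fall and the Fyn probe set that fell are the ones paired with RefSeq mRNAs. Where the probe sets lie along their transcripts was not used here, and the part of the 3′ to 5′ difference in this disagreement was not tested.

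Vav1, the exchange factor for Rac that Syk phosphorylates, read 552 and 639 (DRlyp/lyp) and 712 and 657 (DR+/+). The DRlyp/lyp arrays were the lower ones by a narrow margin. The log2 difference was -0.20 (SE 0.107, 95% interval -0.44 to 0.03, adjusted p = 0.156, limma), so a difference as large as that of Btk lies outside the interval.

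Lcp2 (SLP-76), the adaptor that holds Vav1 and phospholipase C gamma together in mast cells, T cells and myeloid cells, had 2 probe sets of like answer. Probe set 1370090_at read 527 and 582 (DRlyp/lyp) and 494 and 486 (DR+/+), a log2 difference of 0.18 (SE 0.106, adjusted p = 0.215, limma). Probe set 1390797_at read 509.6 and 512 against 452 and 344, a log2 difference of 0.37 (SE 0.135, adjusted p = 0.0458, limma). The second was past the threshold as measured, but not with each array centred on its median (adjusted p = 0.163), nor with either DRlyp/lyp array left out (adjusted p = 0.203 without replicate 1 and 0.204 without replicate 2). Leaving out DR+/+ replicate 2 gave 0.18 (adjusted p = 0.233, limma), and the call was lost under 6 of the 12 alternatives in all.

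Gab2, the docking protein that recruits phosphoinositide 3-kinase, read 9.6 and 2.8 (DRlyp/lyp) and 19.2 and 13.5 (DR+/+). All 4 values were below the filter of 28.3, so its probe set was not tested and no fold is given.

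Of 98 other genes of these pathways, 77 had a probe set and 75 were tested. Of the 75, 29 were called up and 18 down in DRlyp/lyp RNA, beside the 20.9% and 21.1% of all genes, and their median log2 difference was 0.03. With each array centred on its median the split was 20 higher and 20 lower, and with the mean of each gene's probe sets 22 and 19. The shares of all genes under these settings are not given here. Beside the counts of each separate list below stand the same 20.9% higher and 21.1% lower of all genes, and no list was tested as a set. These lists were drawn up with earlier results of these data known.

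Among receptor chains, 2 of 6 were higher and 2 lower. Cd79b, the signalling chain of the B cell receptor, read 454 and 472 (DRlyp/lyp) and 1355 and 1699.7 (DR+/+), and its log2 difference of -1.71 (adjusted p = 5.31e-07, limma) was further from 0 than that of Btk. Fcer1g, the chain shared by the IgE and IgG receptors, read 4047 and 4016 against 3108 and 3135, a log2 difference of 0.37 (adjusted p = 0.000224, limma). Fcgr3a, an IgG receptor of macrophages and other myeloid cells, was lower, at 151 and 154 against 372 and 376 (log2 difference -1.29, adjusted p = 2.80e-05, limma). Fcer1a, the IgE-binding chain, read 108 and 108 against 82.8 and 42.8, a log2 difference of 0.85 (adjusted p = 0.041, limma) whose call was lost under 6 of 11 alternatives, with DR+/+ replicate 2 left out among them (0.38, adjusted p = 0.213). Myeloid receptor chains therefore did not share a direction. Ms4a2, the beta chain of the IgE receptor, was not called, at 64.9 and 69.6 (DRlyp/lyp) against 83.2 and 61.5 (DR+/+). Its log2 difference was -0.09 (adjusted p = 0.815, limma).

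Of the other Src, Tec and Syk family kinases, 3 of 7 were higher and 2 lower. Zap70, the T cell relative of Syk, read 1362 and 1270.1 (DRlyp/lyp) and 254 and 315 (DR+/+), a log2 difference of 2.22 (adjusted p = 1.13e-07, limma), and its second probe set differed by 0.59. Lck, the Src kinase of T cells, read 2910.2 and 2915 against 635 and 687, a log2 difference of 2.14 (adjusted p = 2.98e-09, limma). These T cell kinases were higher where Syk and Btk were lower. Tec, the kinase that names the Btk family, differed by -0.85 (458 and 504 against 826 and 908, adjusted p = 6.44e-05, limma) and Blk, a Src kinase of B cells, by -0.59 (742 and 701 against 1046 and 1121, adjusted p = 0.00031, limma).

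Among the 20 adaptors tested, 9 were called up and 5 down, and the median log2 difference was 0.24. Lat, the membrane adaptor to which Grb2 binds in mast cells and T cells, read 254 and 275 (DRlyp/lyp) and 85.9 and 88.4 (DR+/+), a log2 difference of 1.60 (adjusted p = 2.63e-05, limma). Skap1, a T cell adaptor, differed by 2.53 (537 and 536 against 98.9 and 86.9, adjusted p = 2.53e-07, limma). Nck1, which like Grb2 is built of SH2 and SH3 domains, differed by -1.27 (802 and 696 against 1756 and 1856, adjusted p = 1.02e-06, limma), and Dok3, an inhibitory adaptor of B cells and macrophages, by -0.77 (adjusted p = 0.000803, limma).

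Among 27 effectors, 10 were called up and 6 down (median log2 difference -0.06). Plcg1, the phospholipase C gamma of T cells that mast cells also use, read 337 and 384 (DRlyp/lyp) and 65.0 and 59.7 (DR+/+), a log2 difference of 2.53 (adjusted p = 1.02e-06, limma), whereas its relative Plcg2 was lower. Prkcq, the protein kinase C of T cells, differed by 3.35 (617 and 943 against 87.8 and 63.7, adjusted p = 4.77e-07, limma). Pik3cd, the leukocyte phosphoinositide 3-kinase, differed by -0.71 (759 and 759 against 1264 and 1223, adjusted p = 4.73e-05, limma), with a second probe set that was not called. Rasgrp2, a Ras-family exchange factor, differed by -1.13 (267 and 273 against 539.5 and 644, adjusted p = 3.60e-05, limma), and its second probe set was not called either.

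Among 15 inhibitors and other regulators of these receptors, 5 were called up and 3 down (median log2 difference 0.18). Csk, the kinase that switches off Src family members such as Lyn and Fyn, differed by -0.40 (1456 and 1344 against 1796 and 1909, adjusted p = 0.00121, limma). Ptpn6 (SHP-1), a phosphatase that Lyn brings to inhibitory receptors, differed by -0.73 (1654 and 1609 against 2586 and 2816, adjusted p = 1.02e-05, limma). Among those higher, Ptpn11 (SHP-2), a phosphatase that binds Gab2, differed by 0.75 (1239 and 1186 against 782 and 661, adjusted p = 0.000107, limma), with a second probe set at 0.04 that was not called. Spry2, a feedback inhibitor of Ras signalling, differed by 0.72 (307 and 317 against 206 and 173, adjusted p = 0.00234, limma).

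**Figure D3:**
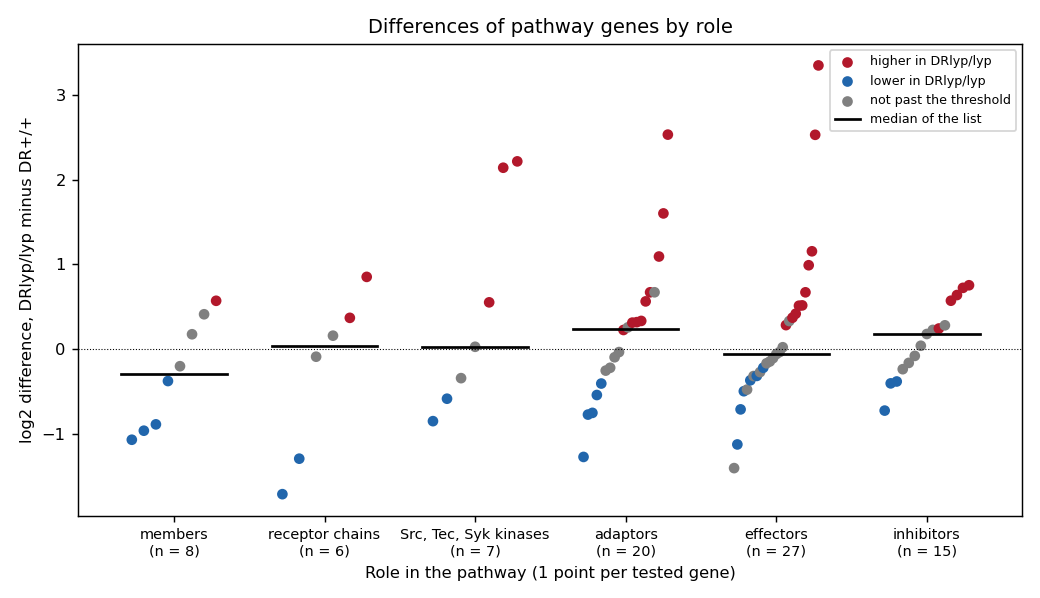
Each point is a tested gene, with its log2 difference, DRlyp/lyp minus DR+/+, on the vertical axis and its role on the horizontal axis, coloured by call, and bars give the list medians. The 8 signalling genes have a median of -0.29, and the points above 2 among the other lists are Zap70, Lck, Skap1, Plcg1 and Prkcq.

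By the distance between log2 profiles over the 4 arrays, each centred on its own mean, the genes most like Btk of 9348 compared were Afg2a (0.0107), Tmem14c (0.0334) and Ube2g2 (0.0350). Those most like Syk were Brd10 (0.0201), Lsm8 (0.0240) and Eif4g3 (0.0256). With 4 arrays these profiles hold little beyond the difference between the pools, so the genes named are those with a like difference, and the likeness is a description.

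**Figure D4:**
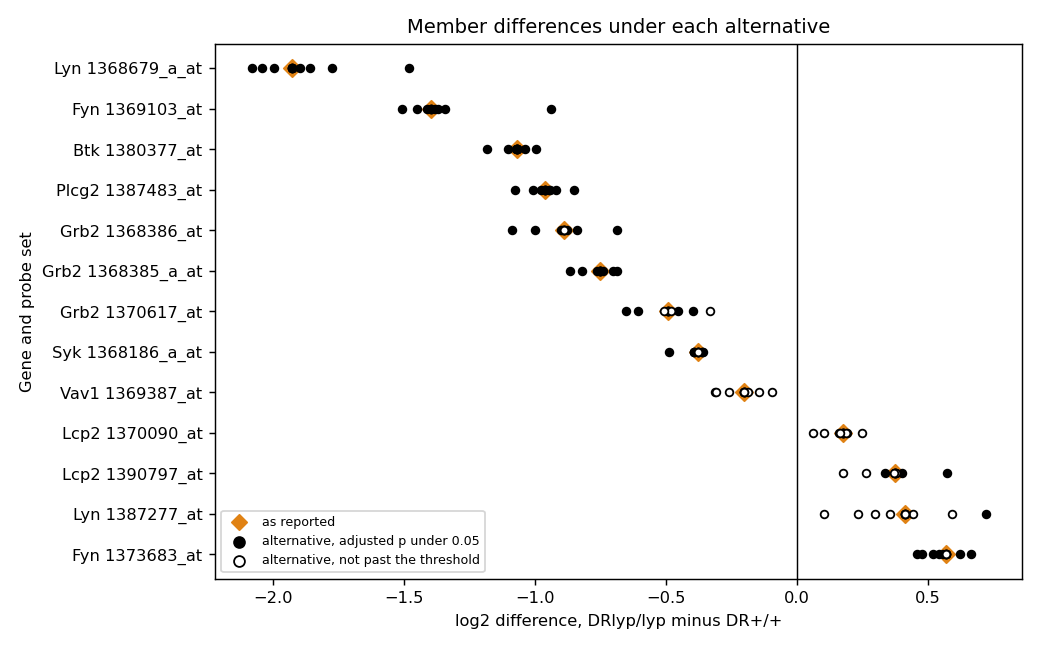
Log2 difference, DRlyp/lyp minus DR+/+ (horizontal axis), of the 13 probe sets tested (vertical axis) as reported (diamonds) and under up to 12 alternatives each (circles, filled where the adjusted p was under 0.05). No probe set crossed 0, and 5 of the 10 that were called stayed past the adjusted p threshold under every alternative plotted: those of Btk and Plcg2, Lyn 1368679_a_at, Fyn 1369103_at and Grb2 1368385_a_at.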

How the data were processed

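Of 31099 probe sets, 57 controls were left out. The authors deposited linear intensity, 1 value per probe set and array. Which program they used to summarise probes is not given in the sources used here. A trimmed mean (2% off each end) came to 150.05 on every array, so no further scaling was applied. Values under 6.8, the 25th percentile of all arrays, were set to it before log2 was taken. Tests were run on probe sets that exceeded 28.3, the median of all arrays, on 2 or more arrays: 16068 probe sets and, with the brightest for each gene, 9349 genes. The sample titles' DP AA4+ and DR AA4+ arrays are called DRlyp/lyp and DR+/+ here, after the descriptions. The two-sided test was that of limma 3.58.1 under R 4.3.3 (lmFit, eBayes with an intensity trend, 2 residual degrees of freedom) and Benjamini-Hochberg adjustment over all probe sets, at a threshold of 0.05. With 4 arrays, their number limits the precision. The test was also run on simulated arrays with independent noise of the spread seen within pools. That says nothing about the spread between animals or pools.

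Symbols came from the platform's annotation: 20826 probe sets had 1 symbol, 436 several and 9780 none. Entrez numbers of 20758 matched RefSeq genes of GRCr8, with 0 symbols changed. The files name no genome build. Genes and lists were chosen with earlier results of these data known. Named were the 10 genes, up to 2 called genes each way per pathway list with no overlap between pools, and the 3 genes nearest to Btk and Syk. The comparison of a gene's probe sets was added after seeing the data. The 14 alternatives were 2 scalings, 2 filters, 2 floors, a block, 4 left-out arrays, no trend, a 2-fold minimum and gene means. Plots used matplotlib 3.10.9 and Python 3.11.15.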

Additional observations from a re-analysis of the deposited data

How the results depend on the processing

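No probe set of the signalling genes changed direction under any alternative, and 5 of the 10 called ones lost the call under at least 1 of the 12 alternatives that refit the model. Without a filter, 6 probe sets (6 lower) and 3 of the genes by brightest probe set were called, as were 18 of the other pathway genes and 1671 of all probe sets; 31042 were then tested. The calls of Fyn 1373683_at (adjusted p = 0.0937) and Grb2 1368386_at (adjusted p = 0.115) were lost there (limma). So were those of Tec, Blk, Prkcq, Ptpn11, Spry2, Rasgrp2 and Csk (adjusted p = 0.0516 to 0.0919). Fcer1g (adjusted p = 0.0767) and Csk (adjusted p = 0.0764) lost theirs without an intensity trend. In that fit 28 pathway genes and 4057 of all probe sets were called. With a 2-fold minimum, which also drops Plcg2 and Grb2 1368385_a_at, the counts were 3 probe sets and 1 gene (Btk) of the signalling genes, 12 pathway genes and 1928 of all. Leaving out 1 array gave 3478 (without DRlyp/lyp replicate 1) to 5800 probe sets over the array, 8 to 10 of the signalling genes' probe sets and 34 to 43 pathway genes. Centring each array on its median moved the median difference of all probe sets to -0.12 and the share of calls that were higher from 49.3% to 35.9%. The replicate numbers count amplifications and were not taken to pair the arrays. Same-numbered arrays deviated with a correlation of 0.0438 over the probe sets tested, and a batch shared by some probe sets was not tested. With the replicate numbers as a block 7044 probe sets were called in all, 11 of them of the signalling genes, and 49 pathway genes.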
